A study of Mus musculus with 5 samples.

Results

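The HOX genes of the newborn mouse ovary were the members of the Hoxa, Hoxb, Hoxc and Hoxd clusters, chosen by name as every probe set annotated with a single symbol made of a cluster name and a number, dim ones included. 48 of the 45037 probe sets other than controls met that rule, for 33 of the 18193 genes with a single symbol. The mouse has 39 such genes in RefSeq, and the other 6 were not analysed here as members. Of the genes measured, 22 had 1 probe set and 11 had 2 to 4.

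RNA came from ovaries of Lhx8 null females (3 arrays, replicates 1, 2 and 3) and of wild type females (2 arrays, replicates 2 and 3) at postnatal day 0.5, both on a C57/BL6/129SVEV Hybrid background. Each array carried biotin-labelled target from 1 pool of 50 ovaries, from at least 25 animals, so a replicate is a pool and not an animal. LHX8 protein is a LIM homeodomain factor made in oocytes. How the null allele was made, whether it is null in every cell of the animal, and whether pools shared a dissection or hybridisation batch is not stated in the labels read here. The Lhx8 probe set read 333, 159 and 347 on the null arrays (replicates 1, 2 and 3, the order kept for all values), against 6450.1 and 5223 on the wild type arrays (replicates 2 and 3), with every null array far below both. The null values still lie above the background line of 143 described further on. The signals are the deposited array intensities, and the folds given are log2 differences, null over wild type, after quantile normalisation of log2(signal + 16).

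HOX genes encode homeodomain transcription factors that give cells along the head to tail axis their position. Within a cluster they lie in the order of their paralogue numbers, and the order on the chromosome follows the order of expression along the body, with low numbers reaching furthest forward and high numbers confined to the rear. In the female reproductive tract of the mouse, Hoxa9, Hoxa10, Hoxa11 and Hoxa13 mark successive parts of the Müllerian duct, with Hoxa9 in the future oviduct, Hoxa10 and Hoxa11 in the uterus and Hoxa13 in the cervix and upper vagina. The arrays measured whole ovaries, so fewer cells of a type and less RNA per cell cannot be told apart in any value here.

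At the 5′ end of the Hoxa cluster, Hoxa13 stayed at background beside Hoxa11 and Hoxa10, which rose. The RefSeq promoter windows of these neighbours (GRCm38.p6, minus strand of chromosome 6, 250 bases before to 50 after the start, written 5′ to 3′) show the letters on both sides of that border. Capitals mark matches, on either strand, to a GC box core (GGGCGG) or a TATA box core (TATAAA), and Hoxa10 has 2 annotated starts.
Hoxa13, chr6:52260831-52261130: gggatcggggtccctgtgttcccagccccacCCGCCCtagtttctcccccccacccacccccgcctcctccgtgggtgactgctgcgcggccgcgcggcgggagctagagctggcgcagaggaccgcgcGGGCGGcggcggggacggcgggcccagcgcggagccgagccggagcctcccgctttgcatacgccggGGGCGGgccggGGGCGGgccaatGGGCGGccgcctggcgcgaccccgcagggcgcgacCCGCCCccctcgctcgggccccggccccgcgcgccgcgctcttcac
Hoxa11, chr6:52245761-52246060: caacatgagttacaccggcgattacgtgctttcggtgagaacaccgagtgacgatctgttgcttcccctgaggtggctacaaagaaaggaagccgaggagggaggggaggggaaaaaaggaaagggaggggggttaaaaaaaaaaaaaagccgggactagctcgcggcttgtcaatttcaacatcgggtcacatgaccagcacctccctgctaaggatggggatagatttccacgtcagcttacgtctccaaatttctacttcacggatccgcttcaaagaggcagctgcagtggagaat
Hoxa10, upstream start, chr6:52240805-52241104: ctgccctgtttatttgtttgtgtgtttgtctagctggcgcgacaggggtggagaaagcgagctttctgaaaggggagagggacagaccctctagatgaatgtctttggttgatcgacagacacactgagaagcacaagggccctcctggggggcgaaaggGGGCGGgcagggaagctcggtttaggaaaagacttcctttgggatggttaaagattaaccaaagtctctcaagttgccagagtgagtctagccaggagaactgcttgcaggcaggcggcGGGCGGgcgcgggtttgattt
Hoxa10, downstream start, chr6:52234890-52235189: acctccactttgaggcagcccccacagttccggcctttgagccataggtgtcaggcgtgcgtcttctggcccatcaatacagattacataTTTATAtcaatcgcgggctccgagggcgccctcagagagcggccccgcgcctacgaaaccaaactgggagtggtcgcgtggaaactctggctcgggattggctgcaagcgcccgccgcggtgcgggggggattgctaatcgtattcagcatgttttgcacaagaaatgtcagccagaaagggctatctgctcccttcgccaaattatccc

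The Hoxa13 window was 81.0% G or C and held 6 GC box cores. The Hoxa11 window was 51.0% G or C and held none of the motifs searched, which besides these were TGATTG, an element reported for LHX8 protein in the mouse, and TAATTA, a core bound by many homeodomains. The upstream Hoxa10 window held 2 GC box cores and the downstream one 1 TATA box core. Windows were found for 22 HOX genes (24 windows, 3 of them of genes not measured here). TGATTG stood on either strand in 2 of the 14 windows of HOX genes that rose and in 2 of the 7 windows of measured HOX genes that did not pass, beside 14.0% of all 32851 windows of the same length. GGGCGG stood in 6 and 2 of these HOX windows, beside 35.7% of all windows, TATAAA in 2 and 0, beside 13.6%, and TAATTA in 2 and 0, beside 5.29%. Each motif was counted by itself, so overlapping matches count for both, and a match is a description of the letters and not a binding site.

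HOX genes were higher in Lhx8 null ovaries than in wild type ovaries in most positions along the clusters, and none was lower. With each gene read at its brightest probe set, 21 of 33 rose and 0 fell (limma across all 45037 probe sets, two-sided, Benjamini-Hochberg adjusted p below 0.05), a share of 63.6% while 14.0% of all genes rose and 13.6% fell. The other 12 did not pass. The brightest probe set had the highest mean level over all 5 arrays, 3 of them null, a choice that can lean towards rises. All genes were read by this rule. The median log2 fold change of the HOX genes was 1.42, beside -0.02 for all 18193 genes. Rises of at least 4-fold were seen in 9 HOX genes (all genes, 1.35%). At an unadjusted p below 0.05, 23 HOX genes were higher and 0 lower, beside 3711 higher and 3592 lower of all 18193 genes.

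**Figure D1:**
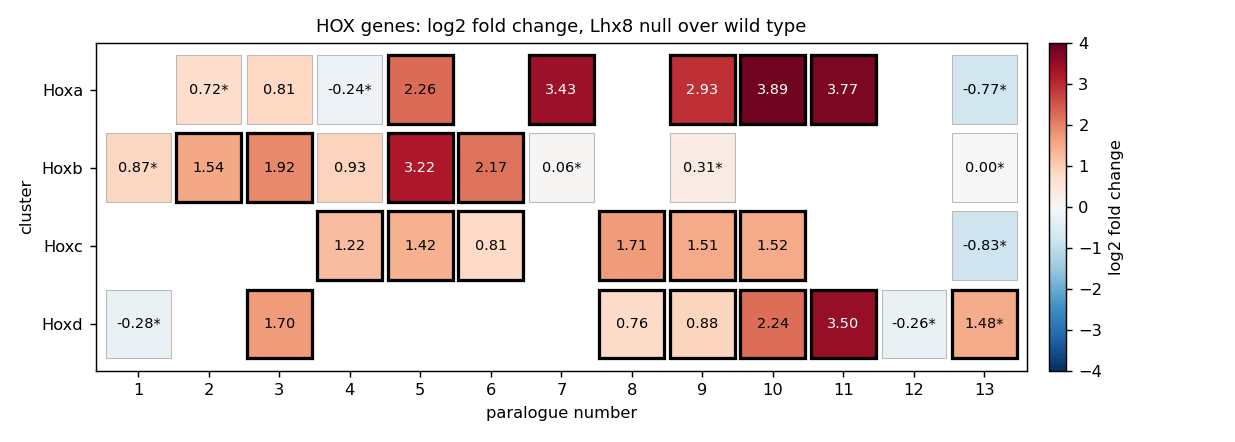
Log2 fold change (Lhx8 null over wild type) of 33 HOX genes at their brightest probe set, laid out by cluster (rows) and paralogue number (columns); black frames mark adjusted p below 0.05, asterisks mark genes whose signal stayed at or below 143 on every array, and empty places are genes not analysed here or positions without a gene in the mouse. Framed genes fill the middle of the map, and the columns for 12 and 13 hold 1 framed gene, Hoxd13, at 1.48.

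At the level of probe sets, 25 of 48 rose and 0 fell, where 10.7% of all probe sets rose and 10.3% fell. Every null array lay above every wild type array for 32 HOX probe sets (all probe sets, 24.5%) and below for 3 (all probe sets, 25.0%). Without wild type replicate 3 the count of HOX genes that rose was 16, and 1, Hoxc13, fell (-1.74, adjusted p = 0.0411). Hoxc13, an activator of hair keratin genes, had signals of 4.3, 3.2 and 4.9 on the null arrays, against 42.9 and 3.2 on the wild type arrays. Wild type replicate 2 stood apart, and every Hoxc13 signal was at background.

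**Figure D2:**
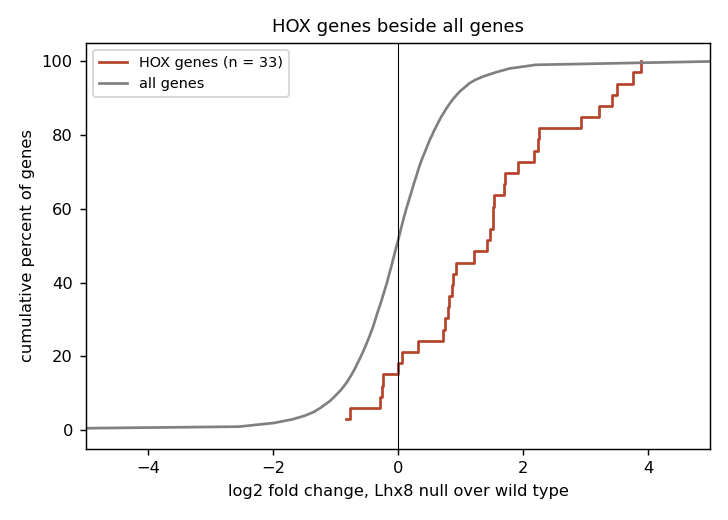
Cumulative percent of genes (y axis) up to each log2 fold change, Lhx8 null over wild type (x axis), for the 33 HOX genes (red steps) and for all 18193 genes (grey line). The HOX curve lies to the right, with a median of 1.42 beside -0.02.

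No detection calls were used, so a line for background was taken from 34 genes of photoreceptors, lens, pancreas, pituitary, thyroid, nose and liver, as the 95th percentile of their signals on all arrays, which was 143 (120.1 on null arrays alone and 179 on wild type arrays alone). Crygb, a lens crystallin gene, and Cela1, a pancreatic elastase gene, read far above the rest of that list, with Crygb at 243, 139 and 128 on null arrays, against 1504 and 1305 on wild type arrays, and Cela1 at 697, 704 and 561 on null arrays, against 481 and 600.0 on wild type arrays. Without them, a choice made after seeing the data, the line was 93.6. 10 HOX genes were above the line of 143 on every null array and at or below it on every wild type array (all genes, 2.64%), and 0 the other way round (probe sets of all genes, 1.70%). At probe set level the count was 11 (all probe sets, 2.88%). The 10 genes were Hoxa3, Hoxd3, Hoxb5, Hoxb6, Hoxa7, Hoxc9, Hoxa10, Hoxc10, Hoxa11 and Hoxd11, and all but Hoxa3 also passed the test. Another 10 were above the line on all arrays, 2 were mixed, and 11 were at or below it on all arrays. Of all 18193 genes, 9883 were above it on all arrays, 1465 were mixed and 6039 were at or below it throughout. The share of HOX genes at or below the line was thus near that of all genes. With the line at 93.6, 8 were above it on null arrays only (Hoxc9 and Hoxc10 became mixed), 11 on all, 5 were mixed and 9 were under it throughout, with all 5 genes of groups 12 and 13 among these. All other statements on the line use 143. Against that line, the mean null signal of the 9 that passed was 2.06 to 8.06 times as high. That is a lower limit on the ratio of their mean deposited signals, null over wild type, and not on the log2 fold changes. Against the line of 179 from wild type arrays alone it would be smaller. Of the genes that gave the line, 0 rose and 2 fell, with a median log2 fold change of -0.20.

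The rises lay mostly in the middle of the paralogue series. Of paralogue groups 5 to 11, 16 of 18 genes rose (median log2 fold change 1.94). Of groups 1 to 4, 4 of 10 rose (median 0.90), and of groups 12 and 13, 1 of 5 (median -0.26), with all 5 at or below the background line on every array. These limits were drawn after the values were seen. The difference between the groups was not tested. Calls also went with brightness. Of the 11 genes at or below the line on every array 1 rose, beside 10 of the 10 above it on all arrays. Of those 11, 4 lay in groups 1 to 4 and 2 in groups 5 to 11. The part of brightness in the pattern along the series was not tested. For genes at or below the line the size of a change is not measured reliably, and the call of Hoxd13 is one of these.

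Among groups 1 to 4, whose genes pattern the hindbrain and neck, Hoxb2, Hoxb3, Hoxd3 and Hoxc4 rose. Hoxb3, which acts in the hindbrain, had signals of 1091, 1082 and 1089 on the null arrays, against 239 and 293 on the wild type arrays, and its log2 fold change was 1.92 (SE 0.15, adjusted p = 0.000156). The null arrays were almost equal and all stood well above both wild type arrays. Hoxb2, needed for the fourth rhombomere, had 527, 464 and 414 in null ovaries, against 121 and 148 in wild type ovaries (log2 fold change 1.54, SE 0.21, adjusted p = 0.00151). Hoxd3, which shapes the first vertebrae, had 284, 346 and 256 in null ovaries, against 66.8 and 67.3 in wild type ovaries (log2 fold change 1.70, SE 0.27, adjusted p = 0.00316), with both wild type arrays below the background line. Hoxc4 had 1220.5, 719 and 734 in null ovaries, against 368 and 340.5 in wild type ovaries (log2 fold change 1.22, SE 0.24, adjusted p = 0.00864). Null replicate 1 was the highest for Hoxc4, and the groups did not overlap. Leaving out wild type replicate 2 or 3 gave Hoxc4 an adjusted p of 0.0688 or 0.0854, and fitting no variance trend gave 0.0512.

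The other genes of groups 1 to 4 did not pass. Hoxa3, which is needed for the thymus and parathyroid, had 209, 155 and 196 in null ovaries, against 81.6 and 81.8 in wild type ovaries, with a log2 fold change of 0.81 (SE 0.28, adjusted p = 0.0746), and its 3 dimmer probe sets ran from -1.01 to 0.78. Hoxb4, a gene used to expand blood stem cells, had 180.3, 106 and 80.8 in null ovaries, against 34.0 and 54.6 in wild type ovaries (log2 fold change 0.93, SE 0.39, adjusted p = 0.142), so its groups did not overlap but the null arrays spread widely. A second Hoxb4 probe set, at or below the background line on every array, went the other way (-0.53, SE 0.46, adjusted p = 0.480). Hoxa2, Hoxb1, Hoxa4 and Hoxd1 were at or below the background line on every array, with log2 fold changes of 0.72, 0.87, -0.24 and -0.28 (adjusted p = 0.209, 0.259, 0.716 and 0.693).

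**Figure D3:**
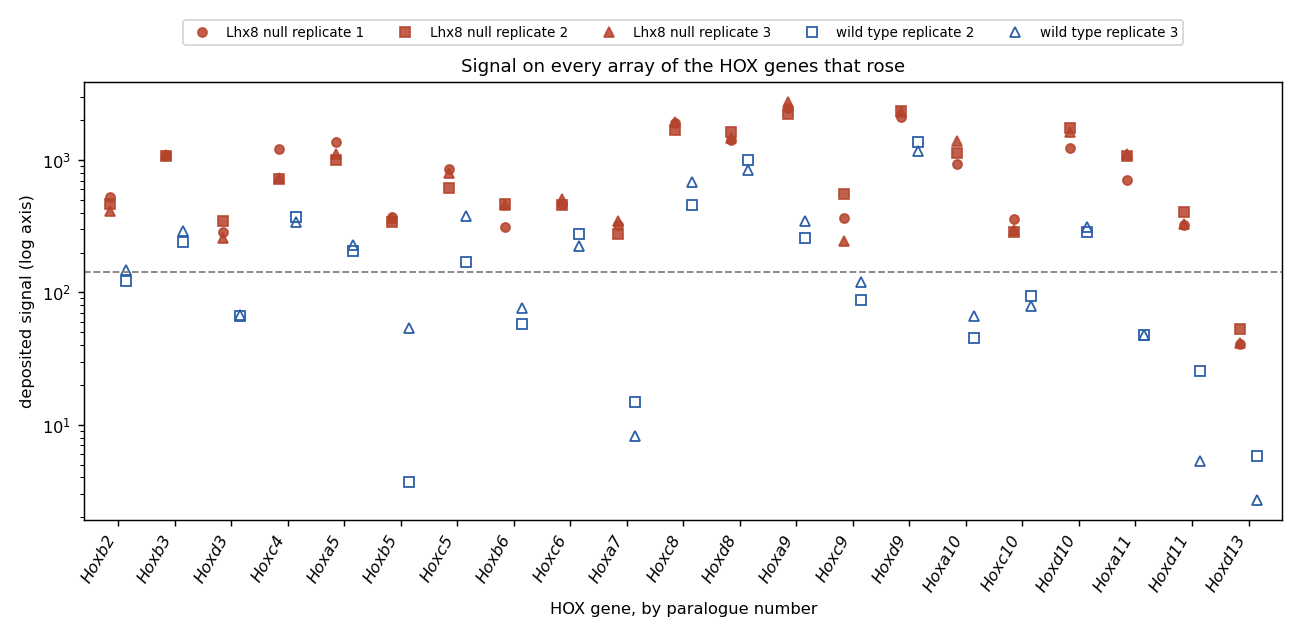
Deposited signal (log axis) on each of the 5 arrays for the 21 HOX genes that rose, ordered by paralogue number, with Lhx8 null arrays in filled red and wild type arrays in open blue; the dashed line is the background line of 143. Null and wild type arrays do not overlap for any of the genes shown, and Hoxd13 lies below the line on all arrays. The genes were selected by adjusted p, which favours such separation. Among all genes, 27.2% had every normalised null level above every wild type level.

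In groups 5 to 8, which pattern the trunk, all genes but Hoxb7 rose. Hoxa5, a gene of lung and trachea development, had signals of 1369, 999.5 and 1105 on the null arrays, against 205 and 229 on the wild type arrays, and rose by 2.26 (SE 0.18, adjusted p = 0.000154). A second probe set of Hoxa5 had 428, 349 and 438 in null ovaries, against 279 and 317 in wild type ovaries, and did not pass (log2 fold change 0.34, SE 0.19, adjusted p = 0.258), and the mean over both had a log2 fold change of 1.30. Hoxb5 had 369.6, 339.9 and 363 in null ovaries, against 3.7 and 54.2 in wild type ovaries (log2 fold change 3.22, SE 0.51, adjusted p = 0.00355). The wild type arrays differ from each other many times over for Hoxb5 and both lie below the background line. Hoxb6, its neighbour in the cluster, had 309, 464 and 459 in null ovaries, against 57.3 and 76.4 in wild type ovaries (log2 fold change 2.17, SE 0.29, adjusted p = 0.00156). Hoxa7, a gene of the thoracic trunk, had 323, 276 and 344 in null ovaries, against 14.9 and 8.2 in wild type ovaries (log2 fold change 3.43, SE 0.32, adjusted p = 0.000313). The wild type signals of Hoxa7 were far under the background line, and its log2 fold change was 2.24 with 64 as the constant added before the log in place of 16. With the same constant Hoxb5 stood at 2.16. The mean null signals of Hoxa7 and Hoxb5 were 2.20 and 2.50 times the line.

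Hoxc8, which acts in motor neurons of the forelimb level, had 1917, 1672 and 1954 in null ovaries, against 457 and 687 in wild type ovaries (log2 fold change 1.71, SE 0.19, adjusted p = 0.000615). Hoxd8 had 1414, 1635 and 1473 in null ovaries, against 1000.4 and 836 in wild type ovaries (log2 fold change 0.76, SE 0.13, adjusted p = 0.00542), and its second probe set rose too, by 0.62 (SE 0.15, adjusted p = 0.0231). Both genes were bright in wild type ovaries as well, and all null arrays exceeded both wild type arrays. The Hoxd8 call was lost with arrays centred on their medians (0.46, adjusted p = 0.0831), without wild type replicate 3 (adjusted p = 0.0613) and without a variance trend (adjusted p = 0.0539). Hoxb7 had signals of 2.4, 16.0 and 39.8 in null ovaries, against 20.4 and 5.3 in wild type ovaries, all at background, and did not pass (log2 fold change 0.06, SE 0.52, adjusted p = 0.954). A probe set annotated to both Hoxb7 and Hoxb8, and so not a member, had 101, 124 and 137 in null ovaries, against 34.7 and 11.9 in wild type ovaries (log2 fold change 1.62, SE 0.42, adjusted p = 0.0272), every array at or below the line. The other such probe sets, both annotated to Hoxd3 and Hoxd4, did not pass, at 1.00 (adjusted p = 0.0558) and 0.68 (adjusted p = 0.301).

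Hoxc4, Hoxc5 and Hoxc6 lie next to each other, and in human some of their transcripts share a first exon. Whether the probe sets read shared RNA was not tested. The probe sets of Hoxc5 and Hoxc6 did not all move together. Hoxc5 had 851, 614 and 801 in null ovaries, against 169.5 and 381 in wild type ovaries, and rose by 1.42 (SE 0.30, adjusted p = 0.0117). The wild type arrays differed from each other, and without wild type replicate 2 Hoxc5 stood at 0.90 (adjusted p = 0.068). Its other probe sets had -0.10 and 0.40, fitting no variance trend gave Hoxc5 an adjusted p of 0.0586, and the mean over its probe sets was 0.57 (adjusted p = 0.129). Hoxc6 had 467, 461 and 505 in null ovaries, against 278 and 223 in wild type ovaries (log2 fold change 0.81, SE 0.18, adjusted p = 0.0153). A second Hoxc6 probe set rose by 1.03 (SE 0.19, adjusted p = 0.00638), while the third, near background, had -0.46. The Hoxc6 call was lost without null replicate 2 (adjusted p = 0.052) or 3 (adjusted p = 0.0633), without either wild type array (adjusted p = 0.0526 for replicate 2 and 0.115 for replicate 3), and with its probe sets averaged (0.46, adjusted p = 0.195).

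In groups 9 to 11, which pattern the lumbar region, the limbs and the reproductive tract, 8 of 9 genes rose. Hoxa10, required in the mouse uterus for embryo implantation, had signals of 926, 1139.9 and 1394 on the null arrays, against 45.0 and 66.8 on the wild type arrays. The means were 1153 ± 234 (SD, n = 3) in null ovaries and 55.9 ± 15.4 (SD, n = 2) in wild type ovaries, and the log2 fold change of Hoxa10 was 3.89 (SE 0.24, adjusted p = 6.64e-05). Its null mean was 8.06 times the background line, under which both wild type arrays lay. A second Hoxa10 probe set was at background on all arrays, and the mean of both had a log2 fold change of 2.38. Hoxa11, needed for the uterine stroma and glands, had 701, 1070.1 and 1102 in null ovaries, against 48.0 and 48.0 in wild type ovaries (log2 fold change 3.77, SE 0.25, adjusted p = 8.81e-05). The wild type signals of Hoxa11 were equal and below the line, and null replicate 1 was the lowest of the null arrays. Since the wild type signals were at background, the sizes moved with the added constant. Hoxa10 had 4.19 with 1 and 3.26 with 64, and Hoxa11 had 4.09 and 3.09. The order of the largest folds moved too, as Hoxd11 (4.58), Hoxa7 (4.42) and Hoxb5 (4.31) stood above Hoxa10 with 1. Hoxa9, the gene of the future oviduct in the series above, had 2458, 2222 and 2727 in null ovaries, against 258 and 347 in wild type ovaries (log2 fold change 2.93, SE 0.16, adjusted p = 5.03e-05), and its second probe set rose by 1.43 (SE 0.28, adjusted p = 0.00887). Unlike its neighbours, Hoxa9 was above the line in wild type ovaries.

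The Hoxd genes of the same groups also rose, by sizes that differed along the cluster. Hoxd11, which with Hoxa11 builds the forearm and kidney in the mouse, had 323, 408 and 326 in null ovaries, against 25.4 and 5.3 in wild type ovaries (log2 fold change 3.50, SE 0.39, adjusted p = 0.000703). With 64 as the added constant Hoxd11 stood at 2.32, and its null mean was 2.46 times the line. Hoxd10, a gene of lumbar motor neurons, had 1232, 1742 and 1624 in null ovaries, against 288 and 313 in wild type ovaries (log2 fold change 2.24, SE 0.18, adjusted p = 0.000156). Hoxd9 had 2125, 2342 and 2321 in null ovaries, against 1376 and 1166 in wild type ovaries (log2 fold change 0.88, SE 0.12, adjusted p = 0.00175), and 0.58 with arrays centred on their medians. From Hoxd11 through Hoxd10 and Hoxd9 to Hoxd8 the log2 fold changes were 3.50, 2.24, 0.88 and 0.76. The differences between these neighbours were not tested.

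Of the Hoxc genes, Hoxc10, another gene of the lumbar level, had 361, 287 and 298 in null ovaries, against 93.7 and 78.4 in wild type ovaries (log2 fold change 1.52, SE 0.24, adjusted p = 0.00334). Hoxc9, which sets thoracic motor neuron identity, had 366, 554 and 243 in null ovaries, against 88.0 and 119 in wild type ovaries (log2 fold change 1.51, SE 0.35, adjusted p = 0.0171). The null arrays of Hoxc9 spread more than the wild type ones, though without overlap, and its call was lost without null replicate 2 (adjusted p = 0.0518) or either wild type array (adjusted p = 0.134 for replicate 2 and 0.081 for replicate 3), and without a variance trend (adjusted p = 0.0576). Hoxb9 was the member of these groups that did not pass, with 126, 80.4 and 121 in null ovaries, against 59.5 and 77.1 in wild type ovaries (log2 fold change 0.31, SE 0.34, adjusted p = 0.586). Its deposited signals did not overlap but its normalised levels did, and all were under the line.

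Groups 12 and 13 act at the rear end of the body, in digits, the lower tract and, for Hoxb13, the prostate. Hoxa13, the next gene after Hoxa11 in the cluster, had signals of 13, 25.6 and 27.7 in null ovaries, against 50.5 and 29.6 in wild type ovaries (log2 fold change -0.77, SE 0.40, adjusted p = 0.224). The Hoxa13 signals were all under the line, and each null array was below both wild type arrays, the opposite order to that of Hoxa11. Hoxb13 had 6.1, 15.1 and 9.2 in null ovaries, against 8.4 and 6.8 in wild type ovaries, and Hoxd12 had 3.5, 5.0 and 8.3 in null ovaries, against 8.7 and 7.3 in wild type ovaries; neither passed (log2 fold changes of 0.00 and -0.26). Hoxd13, a gene of the digits and external genitalia, had 40.6, 53.0 and 41.3 in null ovaries, against 5.8 and 2.7 in wild type ovaries, and passed at 1.48 (SE 0.35, adjusted p = 0.0202). A second Hoxd13 probe set did not pass (0.62, SE 0.39, adjusted p = 0.317). All Hoxd13 signals were under the line, and the log2 fold change of the probe set that passed moved with the added constant (2.97 with 1 and 0.62 with 64). The Hoxd13 call was also lost without null replicate 2 (adjusted p = 0.0565), wild type replicate 2 (adjusted p = 0.0811) or wild type replicate 3 (adjusted p = 0.139).

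**Figure D4:**
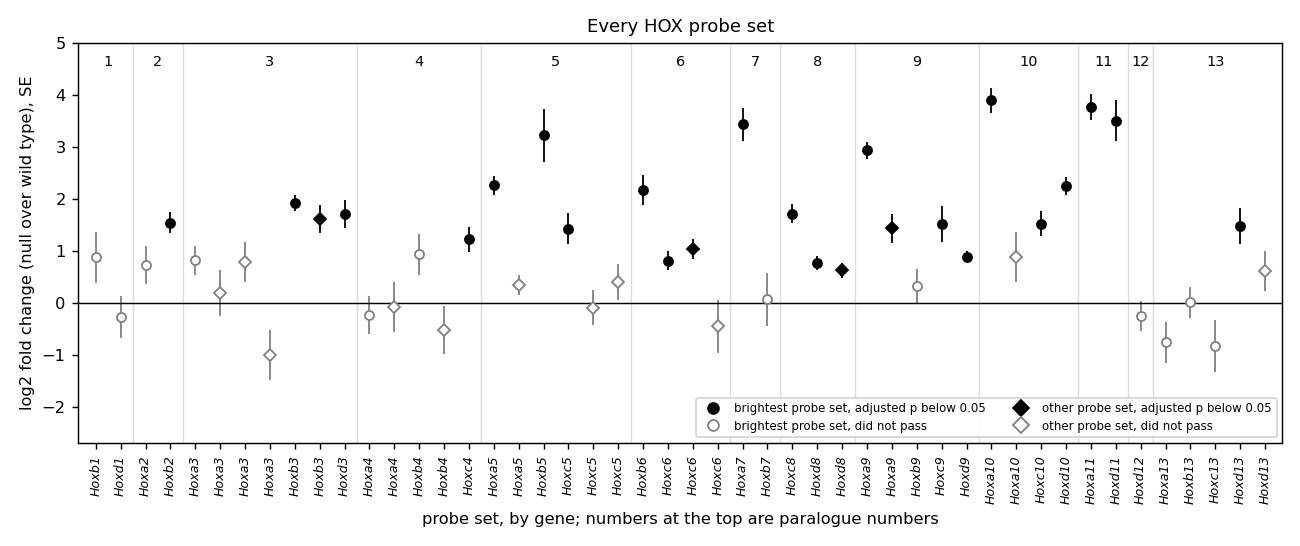
Log2 fold change (Lhx8 null over wild type) with its SE for all 48 HOX probe sets, ordered by paralogue number; circles are the brightest probe set of a gene and diamonds the others, filled where adjusted p was below 0.05. Filled symbols lie in groups 2 to 11, with Hoxd13 besides, and of the 15 diamonds 4 are filled.

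By cluster (Hoxa on chromosome 6, Hoxb on 11, Hoxc on 15 and Hoxd on 2), 5 of 9 Hoxa, 4 of 9 Hoxb, 6 of 7 Hoxc and 6 of 8 Hoxd genes rose, with medians of 2.26, 0.93, 1.42 and 1.18. Along the Hoxa cluster the measured genes from Hoxa11 to Hoxa5 all rose, and Hoxa13 before them and Hoxa4, Hoxa3 and Hoxa2 after them did not pass. Along Hoxc every measured gene from Hoxc10 to Hoxc4 rose. In Hoxb the genes that rose were Hoxb6, Hoxb5, Hoxb3 and Hoxb2, while Hoxb4, which lies between Hoxb5 and Hoxb2 and inside the annotated span of Hoxb3, did not pass. All rises of at least 4-fold lay in the Hoxa (5), Hoxb (2) and Hoxd (2) clusters, a difference that was not tested. Of the 15 probe sets that were not the brightest of their gene, 4 rose, 0 fell and 11 did not pass. At or below the line on every array were 7 of them, beside 20756 of all 45037 probe sets.

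Antisense RNAs transcribed within the clusters rose with the genes. Of 21 noncoding RNAs of the clusters listed, 3 had a probe set, and all 3 rose (median log2 fold change 3.02), beside 14.0% of all genes. Hoxb5os, which overlaps Hoxb5 and Hoxb6, had signals of 808, 652 and 616 on the null arrays, against 50.3 and 77.4 on the wild type arrays (log2 fold change 3.02, SE 0.23, adjusted p = 0.000145). Hoxa11os, whose span overlaps the start of Hoxa11, had 172, 535 and 461 in null ovaries, against 25.6 and 18.6 in wild type ovaries (log2 fold change 3.07, SE 0.51, adjusted p = 0.00435), and a second, dim probe set had 0.14. Null replicate 1 was the lowest of the null arrays for both Hoxa11os and Hoxa11. Hoxd3os1, whose span overlaps that of Hoxd3, had 1495, 644 and 1058 in null ovaries, against 349.6 and 273 in wild type ovaries (log2 fold change 1.62, SE 0.31, adjusted p = 0.0084), with null replicate 1 the highest, and a second, dim probe set had 0.01. How far a probe set reads only 1 strand or 1 of 2 overlapping transcripts was not tested.

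Genes that flank the clusters did not rise with them. Of 21 measured, 0 rose and 5 fell by limma's test (median log2 fold change -0.16), beside 14.0% higher and 13.6% lower among all genes. At an unadjusted p below 0.05, 1 was higher and 7 lower, beside 3711 higher and 3592 lower of all 18193 genes. Skap2, a signalling adaptor gene that flanks the Hoxa cluster, fell, with signals of 632, 829 and 838 in null ovaries, against 1930.2 and 2262 in wild type ovaries (log2 fold change -1.40, SE 0.17, adjusted p = 0.00103). Mtx2, a mitochondrial import gene beyond the Hoxd1 end, fell too, with 1583, 2181 and 2245 in null ovaries, against 3411 and 3752 in wild type ovaries (log2 fold change -0.80, SE 0.16, adjusted p = 0.00925). Skap1, an adaptor gene near Hoxb1, and Lnpk, a gene near Hoxd13, fell as well (-1.86 and -0.57). Evx1 and Evx2, homeobox genes next to Hoxa13 and Hoxd13, were at or below the background line on every array.

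HOX proteins bind DNA together with TALE homeodomain cofactors of the PBX, MEIS and PKNOX families. Of 8 such genes measured, 2 rose and 0 fell (median log2 fold change 0.07), beside 14.0% higher and 13.6% lower among all genes. Meis1 had signals of 2691, 3479 and 3190.1 in null ovaries, against 865 and 852 in wild type ovaries (log2 fold change 1.87, SE 0.13, adjusted p = 0.000103). Meis2 had 1691, 3641 and 3939 in null ovaries, against 764 and 737 in wild type ovaries (log2 fold change 1.94, SE 0.31, adjusted p = 0.00352), with null replicate 1 the lowest null array. Among the signals that set HOX expression in embryos, retinoic acid and CDX factors, 5 of 12 genes rose and 0 fell (median 0.44), read against the same shares of all genes. The retinoic acid binding protein genes Crabp2 and Crabp1 rose by 3.44 (SE 0.22, adjusted p = 8.53e-05) and 1.95 (SE 0.16, adjusted p = 0.000187). The receptor gene Rarb rose by 1.61 (SE 0.19, adjusted p = 0.000982) and Aldh1a2, whose enzyme makes retinoic acid, by 0.87 (SE 0.15, adjusted p = 0.005). Cdx1, Cdx2 and Cdx4, activators of trunk HOX genes in the embryo, were at or below the background line on every array.

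Polycomb proteins keep HOX genes silent and Trithorax proteins keep them active. Of 20 such chromatin genes, 3 rose and 4 fell (median log2 fold change -0.14), beside 14.0% higher and 13.6% lower among all genes. Both counts are near those shares, so the list does not stand out, and its members are given as values only. Eed, a subunit of Polycomb repressive complex 2, had 1688, 1903 and 1927 in null ovaries, against 3309.7 and 4063 in wild type ovaries (log2 fold change -0.94, SE 0.13, adjusted p = 0.00155). Rnf2, the ubiquitin ligase of Polycomb complex 1, and Kdm6a, an H3K27 demethylase gene, fell at -0.66 (SE 0.13, adjusted p = 0.00748) and -0.67 (SE 0.15, adjusted p = 0.0138). Phc2, another Polycomb gene, rose by 0.50 (SE 0.12, adjusted p = 0.0185). Kmt2a, the Trithorax methyltransferase gene, rose by 1.01 (SE 0.25, adjusted p = 0.0245), and Kdm6b, a second H3K27 demethylase gene, by 1.72 (SE 0.43, adjusted p = 0.0237), each with null replicate 1 the highest array. Ezh1, the remaining gene of the list past the threshold, fell at -0.50 (SE 0.13, adjusted p = 0.0246). Of genes that HOX factors act with or on in the reproductive tract, 8 of 22 rose and 0 fell (median 0.43), read against the same shares of all genes, and 10 were at or below the line on all arrays. Hand2, Pgr (the progesterone receptor), Wnt7a and Esr1 (an oestrogen receptor) rose by 4.88, 3.05, 3.16 and 1.64 (SE 0.23, 0.21, 0.26 and 0.14). At an unadjusted p below 0.05 limma found 0 cofactor, 2 input and 1 tract genes lower, beside 3592 of all 18193 genes.

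**Figure D5:**
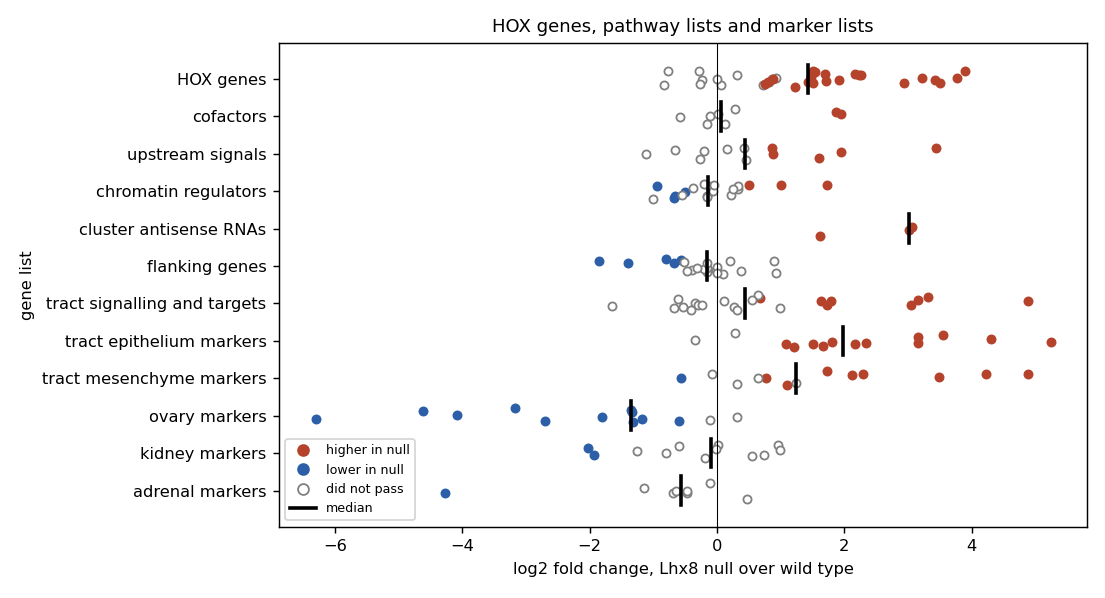
Log2 fold change (Lhx8 null over wild type, x axis) of each measured gene of the HOX genes, of the pathway lists and of the marker lists (rows, each point a gene at its brightest probe set, with vertical scatter for legibility); red points were higher and blue points lower at adjusted p below 0.05, and black bars are medians. HOX genes and both tract marker lists lie mostly to the right of 0, flanking genes around it and ovary markers to the left.

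Most genes chosen as markers of tissue next to the ovary moved in the same direction as the HOX genes. Their counts are to be read against 14.0% higher and 13.6% lower among all genes. The lists were chosen with earlier results of these data known. Hand2, Wnt5a, Wnt7a and Emx2 also stand in the list of tract genes given before, so the counts are not separate. Of 14 markers of the tract and mesonephric epithelium 12 rose and 0 fell, and their summed signal was 28422 to 32976 in null ovaries, against 9335 to 10809.5 in wild type ovaries, with Lhx1 and Wnt9b at or below the background line on every array. Of 13 markers of the tract mesenchyme 8 rose and 1, Amhr2, fell. Their sums were 65010.0 to 73127 in null ovaries, against 37225 to 44791 in wild type ovaries. Col3a1, which did not pass (adjusted p = 0.0843), gave the largest part of each sum. It read 37695, 36557 and 29127 on null arrays, against 21884 and 17749 on wild type arrays. Krt7, Krt8, Krt18, Epcam and Emx2 of the epithelial list were above the line on both wild type arrays too. So were Dpt, Wnt5a, Nr2f1, Nr2f2, Pdgfra, Amhr2, Col3a1, Osr1 and Tcf21, which make up most of the mesenchymal list. How far either list marks only tissue outside the ovary was not tested. The 33 HOX genes summed to 19443 to 20296 in null ovaries, against 5668 to 5884 in wild type ovaries. The part of such cells in the HOX values was not tested. At an unadjusted p below 0.05, 0 of the epithelial markers were lower, beside 3592 of all 18193 genes.

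Markers of the ovary itself went the other way, with 0 of 13 higher and 11 lower (all genes, 14.0% and 13.6%). Their sums were 14220.5 to 16322 in null ovaries, against 47213 to 48065 in wild type ovaries. The list mixes germ cell and somatic genes, which were not summed apart. The germ cell genes fell most, from Dazl at -1.81 to Zp3 at -6.30. The somatic genes that fell ran from Kitl at -0.59 to Foxl2 at -1.35, and Wnt4 (0.32) and Amh (-0.11) did not pass. At an unadjusted p below 0.05, 0 ovary, 1 kidney and 0 adrenal markers were higher, beside 3711 of all 18193 genes. Foxl2, the defining granulosa factor, was still measured in null ovaries at 2305, 1804 and 1714, against 5689 and 4462 in wild type ovaries. Of 12 kidney markers 0 rose and 2 fell, near the 13.6% of all genes that fell, and 9 were at or below the line on every array, namely Aqp2, Foxd1, Nphs1, Six2, Slc12a1, Slc12a3, Slc22a6, Slc34a1, Umod, with sums of 548 to 669.7 on null and 799.8 to 877 on wild type arrays. Of 8 adrenal markers 0 rose and 1 fell, and 6 were at or below the line (Chga, Cyp11b1, Cyp11b2, Cyp21a1, Dbh, Mc2r), with sums of 368 to 534 on null and 1320.1 to 1348 on wild type arrays. The gene that fell was Th, an enzyme gene of catecholamine synthesis, with 41.6, 22.7 and 32.2 on null arrays, against 869 and 821 on wild type arrays. Without Th the adrenal sums were 326 to 511 on null and 479 to 499 on wild type arrays, which overlap.

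The null arrays differed from each other in these genes. Of the 9 genes of groups 9 to 13 that rose, null replicate 1 had the lowest normalised level of the null arrays in 6 and null replicate 2 the highest in 5. Null replicate 1 was the lowest in 1 of 4 genes of groups 1 to 4 and 3 of 8 of groups 5 to 8. Over all 21 genes that rose it was the lowest in 10 and the highest in 5. Without null replicate 1, 21 HOX genes rose. Technical measures also differed by group: the median of the deposited values on the log2(signal + 16) scale was 7.00 to 7.18 on null and 6.80 to 6.83 on wild type arrays. The BioC control was 2.02 times as bright on null arrays, and the 3′ to 5′ ratio of Actb probe sets, which grows as RNA degrades, was 1.48 to 1.69 on null arrays, against 1.39 to 1.43 on wild type arrays. For Gapdh that ratio overlapped, at 0.802, 0.658 and 0.660 on null and 0.666 and 0.625 on wild type arrays. Their part in the HOX values was not tested.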

How the data were processed

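The authors deposited 1 intensity per probe set and array, unlogged. Each array had a 2% trimmed mean of 500, which is a scaling made before deposit. Per the submitters' processing notes the wild type arrays went through GCOS, and no software is named for the null arrays. Per the labels' protocols, RNA of 50 pooled ovaries was labelled with biotin. Groups and replicate numbers came from the titles, and wild type replicate 1 was not analysed here.

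Null minus wild type was fitted with limma 3.58.1 in R 4.3.3 on log2(signal + 16), quantile normalised, for 45037 probe sets without the 64 controls (lmFit, eBayes with a variance trend, two-sided, Benjamini-Hochberg, threshold 0.05). No brightness filter was used, since dim members belong to the rule, and 33 of 48 HOX probe sets would pass a filter on the dimmest 40%. A gene was read at its probe set with the highest mean level over all 5 arrays, 3 of them null, so the choice can lean towards rises. For Hoxa5, the wild type signals were 279 and 317 at the probe set not read, against 205 and 229 at the one read. The platform annotation gave 34945 probe sets 1 symbol, 932 several and 9160 none. All 48 HOX probe sets matched RefSeq (GRCm38.p6) by gene identifier. P-values measure the spread between pools, whose small number limits precision. The fit was tested on simulated arrays.

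Values per array are given for HOX genes that passed, and up to 4 genes of each pathway list with the smallest p are named. HOX genes that did not pass were named after their values were seen. So were Kmt2a, Kdm6b, Ezh1, Evx1, Evx2, the CDX genes, Crygb, Cela1 and the markers. Members and lists were chosen with earlier results of these data known. Alternatives changed the scaling, added constant, filter, probe set rule, variance model and threshold, added the replicate number as a block, or left out each array. Plots were made in Python 3.11.15 (matplotlib 3.10.9).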

Additional observations from a re-analysis of the deposited data

How the results depend on the processing

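Under the 11 alternatives of processing, 17 to 22 HOX genes were higher and 0 lower, against 21 and 0 as reported, and under the 10 that keep single probe sets 17 to 26 HOX probe sets were higher (reported, 25). With each array left out in turn, 16 to 21 genes and 17 to 25 probe sets were higher, and 0 to 1 genes and 0 to 1 probe sets lower, the 1 being Hoxc13 without wild type replicate 3. The median log2 fold change of the HOX genes ran from 1.05 (probe sets averaged) to 1.70 (1 probe set a gene after the brightness filter, with 17 HOX genes left). No HOX gene that rose changed sign, and 15 of 21 passed wherever they were fitted; the other 6 were Hoxc4, Hoxc5, Hoxc6, Hoxc9, Hoxd8 and Hoxd13. For the pathway lists together, 21 genes were higher and 9 lower; 12 to 21 were higher and 4 to 10 lower with an array left out, 3 lower without the variance trend and 4 lower at a threshold of 0.01, and 17 higher and 13 lower after median centring. Over all probe sets, higher ones made up 50.8% of calls, and 35.0% with arrays centred on their medians, under which the median of all probe sets shifted to -0.13 (log2); with the deposited scaling it was 0.11. Those totals were 2374 higher and 2375 lower at 0.01, 2951 and 3108 without the trend, 3396 and 6302 after median centring, and 2133 and 1802 without wild type replicate 3, against 4811 and 4655 as reported. The cause of these shifts was not tested. With the replicate number as a replicate block 21 HOX genes were higher; same-numbered arrays did not deviate together (correlations of 0.01 and 0.02), a check that cannot show what else they shared, and 2 pairs do not establish a pairing. The deposited signals give no background of their own, which limits what can be said of dim genes.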
